A study of Mus musculus with 16 samples.

Results

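The 10 genes followed here encode enzymes and inhibitors of matrix turnover, measured in cells washed from mouse airways by bronchoalveolar lavage: the matrix metalloproteinases Mmp2, Mmp8, Mmp9, Mmp12, Mmp13, Mmp14 and Mmp19 and the tissue inhibitors Timp1, Timp2 and Timp3. They were taken by gene symbol, 10 of the 54532 genes in the deposited count table, and all 16 RNA sequencing libraries were used. The libraries came from 4 groups of 4. Bleomycin males (C33, C65, C66 and C67) and bleomycin females (C49, C50, C68 and C69) had been given 4 U per kg of bleomycin, an antibiotic that breaks DNA and causes lung injury, into the oropharynx. Saline males (C70 to C73) and saline females (C74 to C77) had received saline by the same route. All animals were 8 to 10 weeks old, lavage was done on day 14, and the strain is spelled C56BL/6J in the sample labels and C57BL/6 in the design text. The study set bleomycin against saline in each sex and males against females under each treatment. No label says whether a library came from 1 animal or a pool, so the p-values below measure the spread between libraries.

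Matrix metalloproteinases are zinc-dependent enzymes that cleave extracellular matrix and many secreted or membrane proteins. Most are secreted as inactive proenzymes and become active when their propeptide is removed, whereas Mmp14 sits in the plasma membrane and takes part in activating the Mmp2 proenzyme together with Timp2. Tissue inhibitors of metalloproteinases bind the active enzymes and block them, and Timp3 is itself held in the matrix. In the lung, Mmp12 is the elastase of macrophages, Mmp8 and Mmp9 are stored in neutrophil granules, and transcripts say nothing of whether the encoded proenzymes were activated.

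Mmp13, Mmp12 and Mmp8 lie in one cluster of 10 metalloproteinase genes that spans 427 kb of chromosome 9, and the other members lie apart on chromosomes 2 (Mmp9), 8 (Mmp2), 10 (Mmp19 and Timp3), 11 (Timp2), 14 (Mmp14) and X (Timp1). RefSeq promoters of build GRCm38.p6, from 250 bases before to 50 bases after the transcription start, matched 7 of the 10 members with 8 sequences. Those of 5 genes are shown: the 3 neighbours on chromosome 9, of which Mmp8 changed far less than Mmp12 and Mmp13, and then Mmp14 and Timp2. They are written 5′ to 3′ on the gene's strand, and capitals mark matches to TGANTCA (the AP-1 motif, which reads alike on both strands), TATAAA (the TATA box) or GGGCGG (the GC box), each searched on both strands. In the Mmp14 sequence a pair of GC box matches adjoin.
Mmp13, chr9:7272264-7272563, plus strand: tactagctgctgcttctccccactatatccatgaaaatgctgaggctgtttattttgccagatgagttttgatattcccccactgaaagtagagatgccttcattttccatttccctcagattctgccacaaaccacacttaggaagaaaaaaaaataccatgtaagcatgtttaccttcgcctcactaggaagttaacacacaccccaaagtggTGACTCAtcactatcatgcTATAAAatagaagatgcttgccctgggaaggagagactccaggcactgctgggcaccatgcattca
Mmp12, second start, chr9:7347124-7347423, plus strand: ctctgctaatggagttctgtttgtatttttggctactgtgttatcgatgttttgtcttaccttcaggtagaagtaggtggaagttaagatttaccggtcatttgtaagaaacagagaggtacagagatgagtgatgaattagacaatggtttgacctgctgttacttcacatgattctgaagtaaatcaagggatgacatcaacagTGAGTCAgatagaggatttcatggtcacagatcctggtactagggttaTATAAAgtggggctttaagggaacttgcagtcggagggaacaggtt
Mmp8, chr9:7558179-7558478, plus strand: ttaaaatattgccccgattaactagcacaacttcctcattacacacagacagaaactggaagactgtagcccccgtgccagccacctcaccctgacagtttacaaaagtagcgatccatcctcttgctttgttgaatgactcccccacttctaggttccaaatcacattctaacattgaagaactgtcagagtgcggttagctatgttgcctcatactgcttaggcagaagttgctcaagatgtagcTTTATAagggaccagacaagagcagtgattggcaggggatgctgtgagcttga
Mmp14, chr14:54431348-54431647, plus strand: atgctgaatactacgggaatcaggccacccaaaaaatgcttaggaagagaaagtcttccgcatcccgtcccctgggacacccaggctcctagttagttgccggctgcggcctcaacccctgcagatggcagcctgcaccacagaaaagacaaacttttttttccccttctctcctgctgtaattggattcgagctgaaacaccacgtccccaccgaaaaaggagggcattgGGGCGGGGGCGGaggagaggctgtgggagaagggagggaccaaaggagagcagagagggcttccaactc
Timp2, chr11:118355362-118355661, minus strand: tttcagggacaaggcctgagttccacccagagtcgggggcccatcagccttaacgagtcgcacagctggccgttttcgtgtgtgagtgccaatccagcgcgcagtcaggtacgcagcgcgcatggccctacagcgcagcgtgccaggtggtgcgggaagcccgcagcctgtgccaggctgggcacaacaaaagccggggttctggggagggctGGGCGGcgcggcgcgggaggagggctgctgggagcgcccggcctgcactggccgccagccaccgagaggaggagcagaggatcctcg

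Positions are counted from the transcription start, negative before it. The AP-1 motif was found in Mmp13, from -35 to -29, and in the second Mmp12 start, from -44 to -38. The first Mmp12 start, chr9:7344147-7344446, is not printed and held none of the motifs searched. Of all 32817 promoters of this length, 7.81% held the AP-1 motif. TATAAA stood at -16 to -11 in Mmp13 and at 5 to 10 in the second Mmp12 start, and on the opposite strand at -3 to 3 in Mmp8, against 13.6% of all promoters. GGGCGG was found in Mmp14, Timp1, Timp2 and Timp3, against 35.6% of all promoters, and in none of the sequences of Mmp8, Mmp12 and Mmp13. The GC content followed the same division, at 38.7 to 46.0% in the 4 sequences of the chromosome 9 genes and 55.0 to 68.7% in those of Mmp14 and the 3 inhibitors, with a median of 52.7% over all promoters. A match is a string of letters in this window and not a measured binding site.

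Library totals ran from 21240382 to 24225885 counts in bleomycin males, 18871879 to 24567609 in bleomycin females, 16471022 to 19207944 in saline males and 16385784 to 21393539 in saline females. Levels per gene are given as CPM, counts brought to one library size with a correction for composition, and levels are set between genes only as the authors' FPKM, which also divides by gene length. Lavage samples hold several cell types, and the RNA of a mixture cannot tell fewer cells of a type from less RNA per cell. Summed markers of resident alveolar macrophages stood at 11800 to 24700 CPM in bleomycin and 18100 to 27000 CPM in saline libraries. Most of this sum was Chil3, at 12300 ± 3280 CPM in bleomycin males and 13700 ± 5590 CPM in bleomycin females. Saline males had 12900 ± 517 CPM of Chil3 and saline females 18600 ± 1520 CPM, so the sum says little of the rarer resident markers. Summed markers of monocyte-derived macrophages stood at 12700 to 27700 CPM in bleomycin and 467 to 634 CPM in saline libraries. All 12 of the monocyte-derived and 1 of the 12 resident markers were called higher over both sexes, and 9 resident markers lower. Of all genes tested, 34.7% were called higher and 28.8% lower in that comparison. Ly6c2 of the monocyte-derived set passed the filter on low counts only through the bleomycin groups. The part of these cells in the changes below was not tested. The codes of bleomycin libraries C33, C49 and C50 lie outside the run C65 to C77, and no label says what the codes record. Leaving these 3 out together raised the genes called between the sexes under bleomycin to 670, against 9 with all libraries, and those called for the interaction of bleomycin with sex to 77, against 1. The members kept every call without them, as described with each comparison.

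All 10 members had more RNA after bleomycin than after saline, by very different amounts. By fold change Mmp14, Mmp9, Mmp12 and Mmp13 rose most, and Mmp19 and Mmp8 least. Calls rest on edgeR's quasi-likelihood test with Benjamini-Hochberg adjustment over 15257 genes and a threshold of 0.05. By this test 10 of 10 members were higher over both sexes, where 34.7% of all genes tested were called higher and 28.8% lower. In males 10 of 10 were higher, against 31.5% of all genes, and in females 10 of 10, against 26.7% of all genes. The median log2 fold change over both sexes was 5.19 for the 7 metalloproteinases, 2.48 for the 3 inhibitors and 0.0116 for all genes tested. Mmp9, Mmp13 and Timp3 passed the low-count filter only through the bleomycin groups, and 7 of 10 members pass on the saline libraries alone. Their calls, and the medians that include them, are therefore in part set by that filter, and 5.19 is the value of Mmp13 itself. The 5 metalloproteinases that pass on saline alone changed by 6.84 (Mmp14), 5.24 (Mmp12), 3.99 (Mmp2), 1.23 (Mmp19) and 0.75 (Mmp8). Without C33, C49 and C50, 10 of 10 members were again called higher in males, in females and over both sexes.

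**Figure D1:**
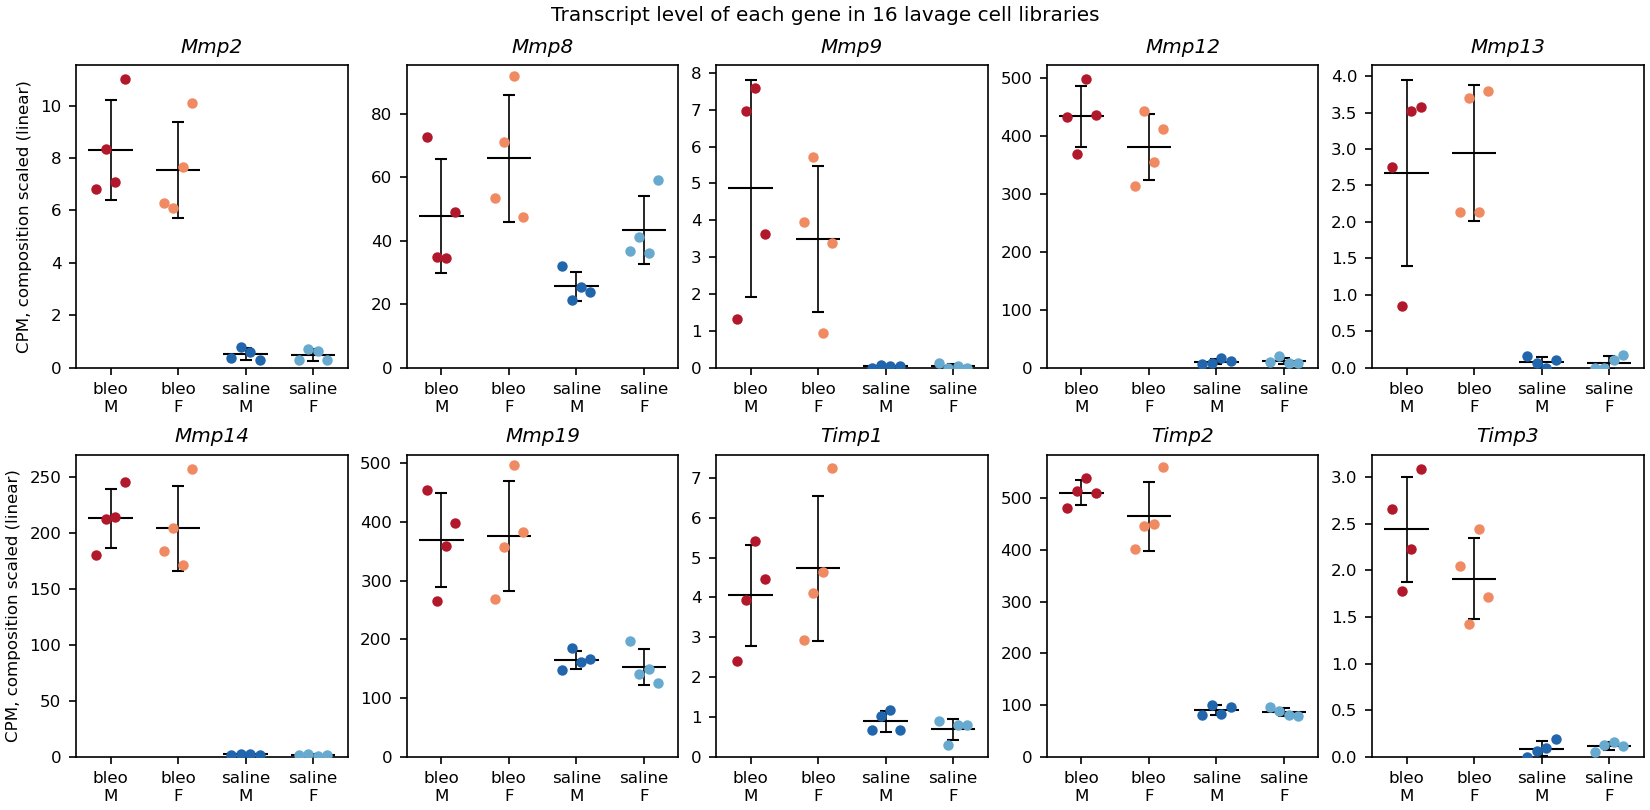
CPM of each member in the 16 libraries, one panel per gene on its own linear axis, with bleomycin males, bleomycin females, saline males and saline females from left to right; points are libraries, long bars are means and error bars are 1 SD (n = 4). In 9 panels every bleomycin point lies above every saline point; in the Mmp8 panel the groups overlap, from 34.6 to 91.9 CPM after bleomycin and from 21.4 to 59.3 CPM after saline.

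Mmp14, the membrane-anchored collagenase (14:54431612-54445364, plus strand), had the largest change among the members over both sexes. The 4 bleomycin males had 180, 212, 214 and 245 CPM (C33, C65, C66, C67), and the 4 bleomycin females 184, 204, 171 and 257 CPM (C49, C50, C68, C69). In saline males it stood at 1.65, 2.86, 2.11 and 1.60 CPM (C70 to C73), and in saline females at 1.28, 2.26, 1.05 and 1.82 CPM (C74 to C77). The lowest bleomycin library was far above the highest saline library, and the highest bleomycin library was 1.5 times the lowest. The log2 fold change over both sexes was 6.84 (SE 0.147, edgeR adjusted p = 1.66e-16), a 114-fold difference.

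Mmp2, the gelatinase whose proenzyme Mmp14 activates, followed at a much lower level. Its CPM were 6.80, 8.33, 7.09 and 11 in bleomycin males and 6.29, 6.09, 7.67 and 10.1 in bleomycin females. In saline males they were 0.362, 0.801, 0.588 and 0.290, and in saline females 0.277, 0.695, 0.630 and 0.284. All bleomycin values lay above all saline values, and C67 and C69 were the highest library of their group for both Mmp2 and Mmp14. The log2 fold change over both sexes was 3.99 (SE 0.228, edgeR adjusted p = 3.21e-11).

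Mmp12, macrophage elastase (9:7344381-7369499, plus strand), stood at 433, 368, 497 and 435 CPM in bleomycin males and 313, 442, 355 and 411 CPM in bleomycin females. Saline males had 6.77, 7.89, 15.7 and 10.6 CPM, and saline females 8.88, 19.5, 7.67 and 8.51 CPM. The groups did not overlap, and among saline females C75 stood above the other 3. The change was 5.24 on the log2 scale over both sexes (SE 0.206, edgeR adjusted p = 2.21e-13), or 37.7-fold.

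Mmp13, an interstitial collagenase, was a rare transcript in every library. It stood at 2.75, 0.838, 3.52 and 3.58 CPM in bleomycin males and 2.14, 3.70, 2.14 and 3.80 CPM in bleomycin females. Saline males had 0.155, 0.0572, 0 and 0.0968 CPM and saline females 0, 0, 0.105 and 0.170 CPM, which came to 6 and 5 counts in all. The bleomycin values varied 4.54-fold, with C65 the lowest, and all lay above the saline values. From the summed counts the ratio of bleomycin to saline was 35.3 in males (95% interval 16 to 97.3) and 45.8 in females (19.3 to 142). Intervals of this kind cover counting error only. The fitted log2 fold change over both sexes was 5.19 (SE 0.485, edgeR adjusted p = 2.28e-08).

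Mmp9, the gelatinase stored in neutrophil granules and also made by other leukocytes, was nearly undetected after saline, with 3 counts over the 4 saline male libraries and 3 over the 4 saline female libraries. Bleomycin males had 1.31, 6.97, 7.59 and 3.62 CPM, and bleomycin females 3.95, 5.72, 0.939 and 3.37 CPM. These values spanned 8.08-fold, the widest range of the 10 members after bleomycin, with C33 and C68 the low ends of the 2 groups. The ratio of summed counts, bleomycin over saline, was 122 in males (95% counting interval 41.4 to 594) and 94.1 in females (31.9 to 459). The fitted log2 fold change over both sexes was 6.53 (SE 0.609, edgeR adjusted p = 1.95e-08).

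In each bleomycin group the library lowest in Mmp9 was also lowest in summed B cell, T cell, neutrophil and dendritic cell markers. Summed B cell markers were 92.4, 350, 219 and 211 CPM in bleomycin males (C33, C65, C66, C67) and 269, 227, 53.3 and 118 CPM in bleomycin females (C49, C50, C68, C69). C33 and C68 were lowest in their groups, as they were for Mmp9. Summed T cell markers stood at 247, 590, 437 and 504 CPM in bleomycin males and 511, 460, 213 and 225 CPM in bleomycin females. C69 was an exception, nearly as low as C68 in T cell markers but with 3.37 CPM of Mmp9, against 0.939 CPM in C68. All 6 B cell and all 10 T cell markers were detected in each bleomycin group, and their sums were at most 1.28 and 9.38 CPM in saline libraries. Dendritic cell markers summed to 366.6, 715.2, 585.9 and 615.5 CPM in bleomycin males and 525.6, 499.6, 317.5 and 486.2 CPM in bleomycin females. Summed neutrophil markers moved less between bleomycin libraries. They stood at 195, 223, 277 and 230 CPM in males and 203, 180, 174 and 270 CPM in females. C33 and C68 were again the lowest of their groups in both sums. Of the 14 neutrophil markers, Mpo and Camp were at 0 in bleomycin males and Mpo and Ly6g at 0 in bleomycin females. Saline libraries summed to 56.2 to 73.4 CPM. Over all 16 libraries Ly6g had 1 count, Mpo 2, Elane 2, Camp 10, Ngp 13 and Prtn3 20, and these 6 were not tested. The sum in bleomycin libraries came mostly from Hp, S100a8, Cxcr2 and Csf3r. Neutrophil markers did not all move one way. Of 8 tested, 6 were called higher and 1 lower over both sexes, against 34.7% and 28.8% of all genes. Of the 6, S100a9, Retnlg and Lcn2 had passed the filter only through the bleomycin groups. Csf3r, the G-CSF receptor gene and most of the saline sum, was the lower one, at 36.9 ± 4.22 CPM in bleomycin males and 35.2 ± 5.15 CPM in bleomycin females, against 53.4 ± 4.71 CPM in saline males and 48.5 ± 8.10 CPM in saline females (log2 fold change -0.50, edgeR adjusted p = 7.06e-05). Ltf was not called (-0.33, edgeR adjusted p = 0.357). The part of these cells in the Mmp9 level was not tested.

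**Figure D2:**
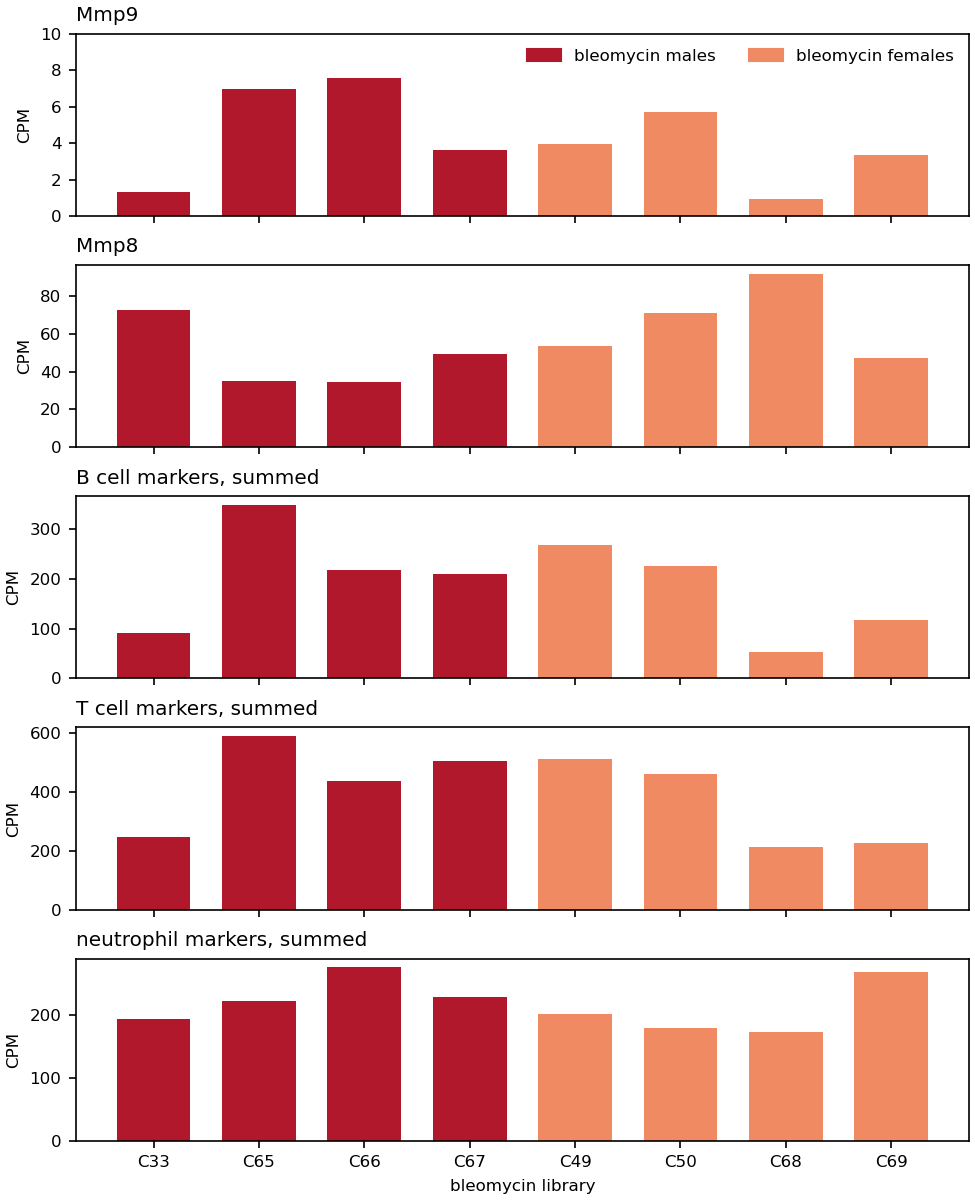
CPM of Mmp9 and of Mmp8 and summed CPM of B cell, T cell and neutrophil markers in the 8 bleomycin libraries (bars, linear axes from 0), males left of females. C33 and C68 have the lowest Mmp9 (1.31 and 0.939 CPM) and the highest Mmp8 (72.9 and 91.9 CPM) of their groups. They also have the lowest B cell, T cell and neutrophil sums of their groups.

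Mmp19, a secreted metalloproteinase of many tissues, was abundant after saline too, and of the members only Mmp8 had a smaller fold change. It stood at 454, 265, 359 and 398 CPM in bleomycin males and 269, 357, 496 and 383 CPM in bleomycin females. Saline males had 147, 185, 162 and 167 CPM and saline females 197, 141, 150 and 125 CPM. All bleomycin libraries lay above all saline libraries, with C33 and C68 the highest of their groups. The change over both sexes was 1.23 on the log2 scale (SE 0.126, edgeR adjusted p = 1.14e-07), or 2.34-fold. On the opposite strand Tmem198b overlaps Mmp19 with 2860 counts in all, against 86085 for Mmp19, and the sources used here do not give whether counting used strand.

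Mmp8, the collagenase first described in neutrophils, was the member that changed least. It stood at 72.9, 35.0, 34.6 and 49.2 CPM in bleomycin males, against 32.1, 21.4, 25.4 and 23.9 CPM in saline males. In bleomycin females it stood at 53.5, 71.2, 91.9 and 47.4 CPM, against 36.7, 41.3, 36.3 and 59.3 CPM in saline females. The male groups did not overlap, whereas saline female C77 lay above bleomycin females C49 and C69. The log2 fold change was 0.90 in males (SE 0.242, edgeR adjusted p = 0.00422) and 0.61 in females (SE 0.237, edgeR adjusted p = 0.0458). The call in females was lost in 14 of 24 alternative analyses, among them scaling by library totals alone (0.41, edgeR adjusted p = 0.174). Leaving out C50, C65, C66, C67, C68, C72, C73, C74, C75 or C76 singly also ended it, with adjusted p from 0.0502 to 0.186. The exact permutation test on log2(CPM + 1) gave p = 0.0857 in females and p = 0.0286 in males, the smallest value that 4 against 4 libraries allow. Summed neutrophil markers, listed above, were 174 to 277 CPM in bleomycin and 56.2 to 73.4 CPM in saline libraries, with Csf3r lower after bleomycin against the direction of the sum, and their part in the Mmp8 level was not tested.

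Timp2, an inhibitor that also bridges Mmp14 and the Mmp2 proenzyme, varied least among the bleomycin libraries. It stood at 481, 514, 540 and 511 CPM in bleomycin males and 403, 446, 451 and 561 CPM in bleomycin females. Saline males had 81.8, 100, 83.1 and 95.9 CPM and saline females 97.3, 88.5, 81.3 and 79.7 CPM. The groups did not overlap, and the highest bleomycin library was 1.39 times the lowest. Cep295nl overlaps Timp2 on the same strand with 190 counts in all, against 93549 for Timp2. The log2 fold change over both sexes was 2.46 (SE 0.0751, edgeR adjusted p = 7.48e-15), or 5.51-fold.

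Timp1, an inhibitor known as inducible by cytokines and inflammation, changed by a like factor. It stood at 2.40, 3.93, 5.41 and 4.47 CPM in bleomycin males and 2.92, 4.12, 4.64 and 7.24 CPM in bleomycin females. Saline males had 0.672, 1.03, 1.18 and 0.677 CPM and saline females 0.888, 0.304, 0.788 and 0.794 CPM. The groups did not overlap, and the log2 fold change over both sexes was 2.48 (SE 0.254, edgeR adjusted p = 1.04e-07). Timp1 lies inside Syn1 on the opposite strand, which carried 9894 counts in all against 825 for Timp1. Syn1 fell by 0.999 on the log2 scale (SE 0.125, edgeR adjusted p = 1.46e-06), so Timp1 moved against the gene it overlaps.

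Timp3, the matrix-bound inhibitor, had the lowest level of the members per length and the largest change of the inhibitors. It stood at 2.66, 1.78, 2.23 and 3.09 CPM in bleomycin males and 2.05, 1.43, 2.45 and 1.72 CPM in bleomycin females. Saline males had 0, 0.0572, 0.0980 and 0.194 CPM and saline females 0.0555, 0.130, 0.158 and 0.113 CPM, which came to 7 and 9 counts in all. The groups did not overlap. The ratio of summed counts was 27.5 in males (95% counting interval 13.1 to 69.3) and 16.3 in females (8.38 to 36.4), and the fitted log2 fold change over both sexes was 4.33 (SE 0.334, edgeR adjusted p = 1.67e-09). Timp3 lies within Syn3 on the opposite strand, with 220 counts against 376 for Timp3. Syn3 was also called higher, by 0.89 on the log2 scale (SE 0.342, edgeR adjusted p = 0.0290), and how far reads of the pair were mixed was not tested. Summed fibroblast markers stood at 3.40 to 7.5 CPM in bleomycin and 1.27 to 2.63 CPM in saline libraries, with Tcf21 at 0 in every group. Of the 10 fibroblast markers 2 had enough counts to be tested. Col1a1 had 0 counts in all saline libraries and passed the filter only through the bleomycin groups, so its call as higher is set by the filter. Col14a1 was called higher in males and over both sexes and not in females (edgeR adjusted p = 0.118). The part of these cells in the levels of Timp1, Timp3 and Mmp2 was not tested.

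In each sex the groups were set apart as far as a permutation of 4 against 4 libraries allows. This exact permutation test on mean log2(CPM + 1) gave p = 0.0286, its smallest value, for 10 of 10 members in males and for 9 of 10 in females, the exception being Mmp8. Of all genes tested, 29.8% had every bleomycin male above every saline male and 23.8% every bleomycin female above every saline female. In the other direction, which the two-sided test also counts, the shares were 24.6% in males and 15.3% in females. Over all 16 libraries 9 of 10 members were higher with no overlap, against 19.2% of all genes tested. Mmp9, Mmp13 and Timp3 are in these counts of members, and they passed the low-count filter only through the bleomycin groups. In the authors' deposited tables of bleomycin against saline, 10 of 10 members were listed as higher in males, in females and in both sexes together. In those tables no listed gene had an unadjusted p above 0.05. Of all genes in the count table, the authors' deposited tables list 11.1% as higher in males, 9.06% in females and 12.5% in both sexes together.

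The sexes did not differ detectably in how these genes answered bleomycin. For the interaction of bleomycin with sex, edgeR called 0 of 10 members, against 0.00655% of all genes tested. None had an unadjusted p under 0.05, and DESeq2 and limma voom also called 0. The estimates were precise for some genes and loose for others. For Timp2 the change in males exceeded that in females by 0.08 on the log2 scale (95% interval -0.20 to 0.36), for Mmp14 the difference was -0.27 (-0.85 to 0.32) and for Mmp12 0.32 (-0.39 to 1.03). For Mmp9 it was 0.48 (-3.27 to 4.22) and for Mmp13 -0.36 (-2.78 to 2.05), so that differences of several fold could not be seen at these counts.

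**Figure D3:**
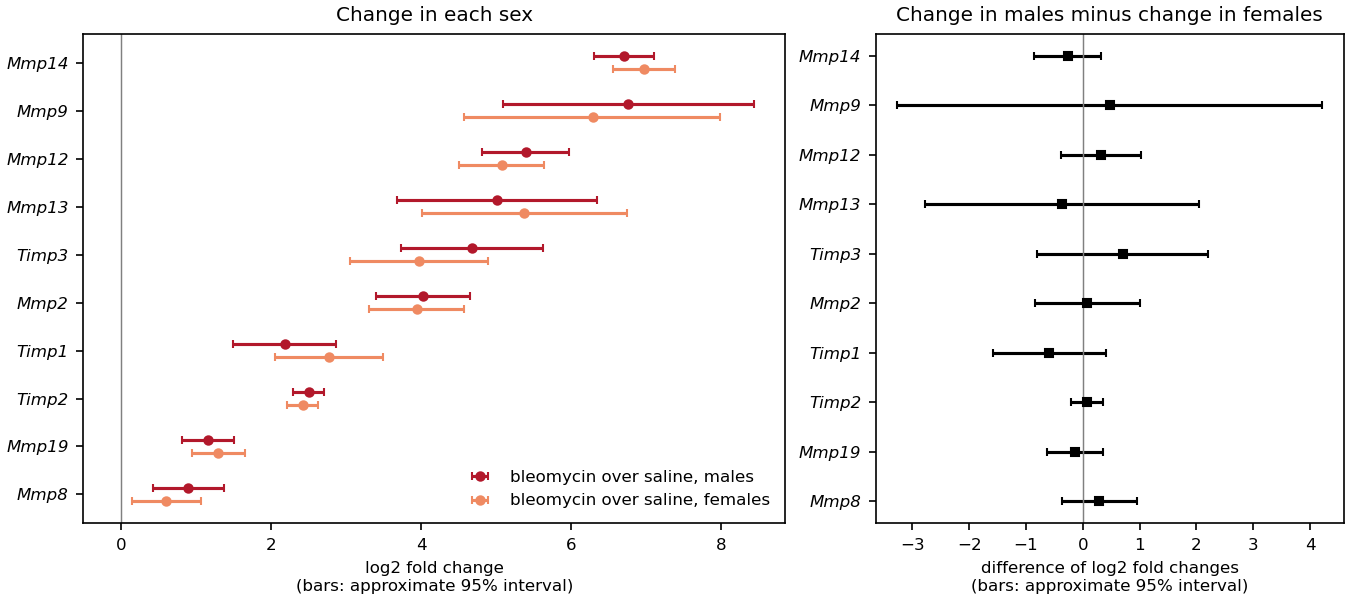
Left, log2 fold change of bleomycin over saline from edgeR for each member in males (upper, red) and females (lower, orange); right, the change in males minus the change in females. Bars are approximate 95% intervals; all 20 bars on the left lie above 0, the nearest for Mmp8 in females (0.142 to 1.07), and all 10 bars on the right include 0.

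Between males and females under bleomycin, edgeR called 0 of 10 members, against 0.059% of all genes tested, and none had an unadjusted p under 0.05. The largest difference among the members was for Mmp9, at 0.47 on the log2 scale (SE 0.484, edgeR adjusted p = 0.995), and the next for Mmp8, at -0.46 (SE 0.236, edgeR adjusted p = 0.995). DESeq2 and limma voom also called 0 members. Without C33, C49 and C50, 0 members were called too, while the Mmp9 difference became 1.53 (edgeR adjusted p = 0.0709) and the Mmp8 difference -0.79 (edgeR adjusted p = 0.0821). C33 was the bleomycin male with the lowest Mmp9 and the highest Mmp8.

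Under saline, Mmp8 was the one member whose male and female libraries did not overlap. Its 32.1, 21.4, 25.4 and 23.9 CPM in saline males all lay below its 36.7, 41.3, 36.3 and 59.3 CPM in saline females, as did those of 6.3% of all genes tested. Counted in either direction, 13.1% of all genes had no overlap between saline males and saline females, so 1 member of 10 is near that share. The log2 fold change of males over females was -0.75 (SE 0.242, unadjusted p = 0.00608, edgeR adjusted p = 0.295), and the exact permutation test gave p = 0.0286, its smallest value. edgeR called 0 of 10 members, against 0.269% of all genes tested, and Mmp8 alone had an unadjusted p under 0.05. DESeq2 and limma voom called 0 members. Mmp8 was called when the saline groups were fitted by themselves (-0.76, edgeR adjusted p = 0.0152) and when no low-count filter was used (-0.77, edgeR adjusted p = 0.00969). The authors' deposited table of saline males against saline females lists Mmp8 with a log2 fold change of -0.77 and an adjusted p of 0.00899. Summed neutrophil markers were 64.6 to 73.4 CPM in saline males and 56.2 to 68.5 CPM in saline females, and these ranges overlap. Their part in the Mmp8 difference was not tested.

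Per gene length, Timp2 and Mmp19 dominated the set after bleomycin and Mmp19 alone after saline. Timp2 had a median of 126 FPKM (102 to 140) in bleomycin and 21.9 FPKM (20.4 to 25.7) in saline libraries, and Mmp19 103 FPKM (74 to 137) and 43.8 FPKM (35.1 to 55.6). Mmp19 exceeded Timp2 in all 8 saline libraries, and Timp2 exceeded Mmp19 in 6 of 8 bleomycin libraries, where their ranges overlap. Mmp12 ranked 3 of 10 after bleomycin with a median of 57.3 FPKM, against 1.2 FPKM in saline, and Mmp14 ranked 4 with 34.6 FPKM, against 0.291 FPKM. Mmp8 ranked 5 after bleomycin with 21 FPKM and 3 after saline with 14.1 FPKM.

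The lower part of the order held Timp1 and Timp3 and the 3 scarce proteases. Timp1 had a median of 4.83 FPKM in bleomycin and 0.886 FPKM in saline libraries, and Mmp2 2.15 FPKM and 0.141 FPKM. Mmp13, Mmp9 and Timp3 closed the order in both treatments, at 1.16, 1.06 and 0.260 FPKM after bleomycin. Mmp13 exceeded Mmp9 in 4 of 8 bleomycin libraries, so the order of that pair was not resolved. Mmp14 exceeded Mmp8 in 7 of 8 bleomycin libraries, and Timp1 exceeded Mmp2 in 8 of 8, though the ranges of both pairs overlap. In saline libraries, of the neighbouring pairs from Mmp12 down, only Mmp2 and Mmp13 had ranges that did not overlap.

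**Figure D4:**
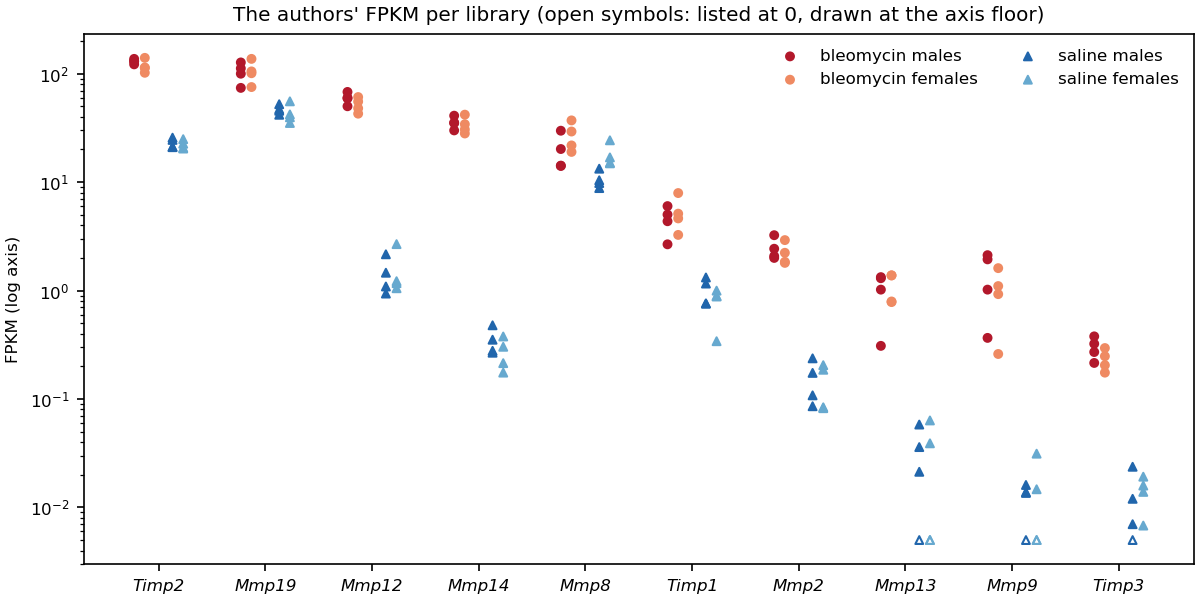
The authors' FPKM of each member (log axis), ordered by the bleomycin median; circles are bleomycin and triangles saline libraries, darker for males, and open symbols are libraries listed at 0. Timp2 moves above Mmp19 in 6 of 8 bleomycin libraries, and Mmp8 is the gene whose circles and triangles overlap.

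The mix of metalloproteinase transcripts was another one after bleomycin. Summed over the 7 enzymes, FPKM averaged 223 ± 31.7 in bleomycin males and 221 ± 33.6 in bleomycin females, against 59.2 ± 2.69 in saline males and 62.9 ± 6.34 in saline females (SD, n = 4 each). Mmp19 made up 46.1 ± 3.94% of this sum in bleomycin males and 46.9 ± 5% in bleomycin females, against 78.7 ± 3.83% in saline males and 68.2 ± 8.37% in saline females. Mmp12 made up 26.8 ± 3.02% and 23.6 ± 3.25% in bleomycin males and females, against 2.39 ± 0.938% and 2.47 ± 1.34% in saline males and females. The share of Mmp14 was 16.2 ± 3.18% in bleomycin males and 15.5 ± 3.32% in bleomycin females, against 0.577 ± 0.137% in saline males and 0.430 ± 0.163% in saline females. Mmp8 had 8.67 ± 2.35% in bleomycin males and 12.1 ± 2.63% in bleomycin females, against 18 ± 4.01% in saline males and 28.6 ± 8.08% in saline females.

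The ratio of summed inhibitor to summed protease transcripts was higher after bleomycin over all 7 enzymes, and lower in males when Mmp19 was left out. The 3 inhibitors summed to 135 ± 7.36 FPKM in bleomycin males and 123 ± 17.9 FPKM in bleomycin females, against 24.1 ± 2.35 FPKM in saline males and 22.9 ± 2.13 FPKM in saline females. Timp2 supplied a mean of 95.6 to 96.5% of the inhibitor sum in each of the 4 groups. The ratio of inhibitor to protease FPKM was 0.502, 0.756, 0.641 and 0.569 in bleomycin males and 0.607, 0.517, 0.467 and 0.653 in bleomycin females. In saline males it was 0.386, 0.427, 0.385 and 0.431, and in saline females 0.359, 0.383, 0.370 and 0.348. All 8 bleomycin libraries lay above all 8 saline libraries. This order rests on Mmp19, the largest part of the saline protease sum. Without Mmp19 the other 6 enzymes summed to 119 ± 10.2 FPKM in bleomycin males and 117 ± 12.9 FPKM in bleomycin females, against 12.5 ± 1.75 FPKM in saline males and 19.8 ± 4.47 FPKM in saline females. The ratio was then 1.02 to 1.29 in bleomycin males, all below the 1.49 to 2.52 in saline males, and 0.920 to 1.22 in bleomycin females, overlapping the 0.819 to 1.56 in saline females. Mmp19 was left out after its share had been seen. The ratio was not tested, since its members were chosen with results known, and it compares RNA and not protein or activity.

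**Figure D5:**
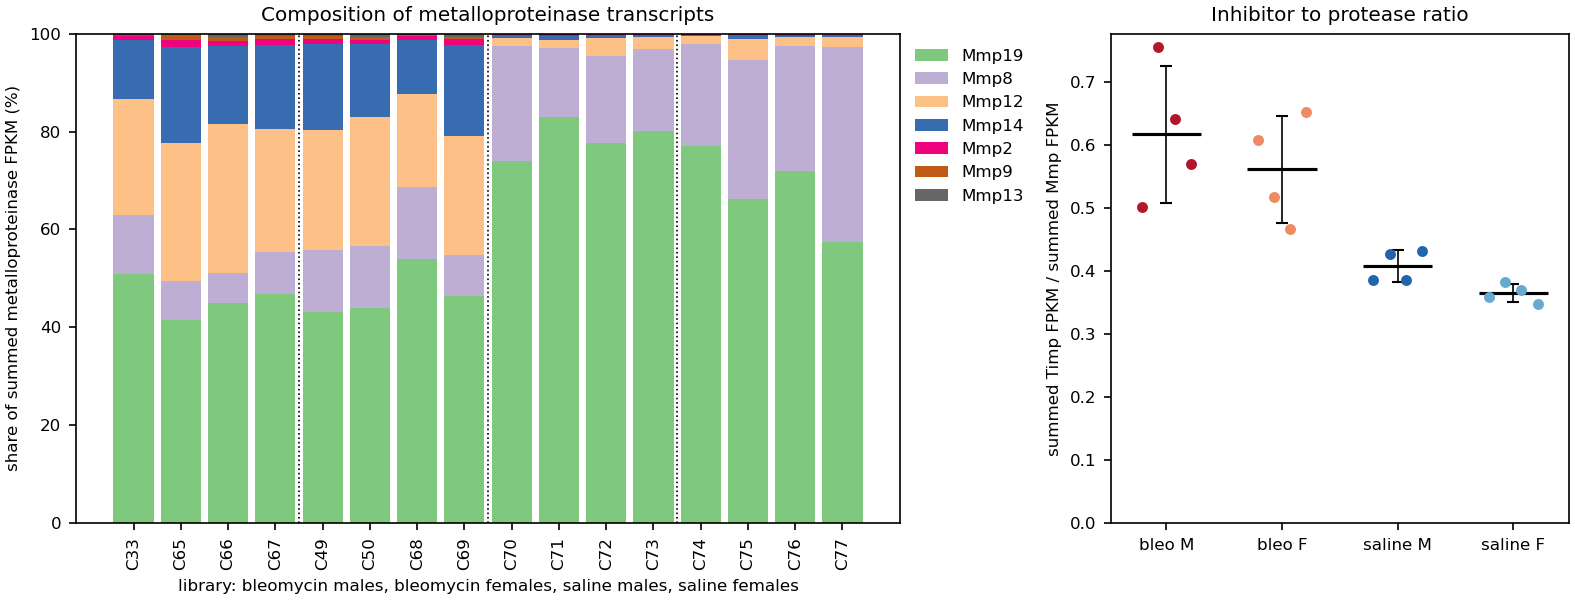
Left, the share of each metalloproteinase in the summed metalloproteinase FPKM of each library (stacked bars, percent), bleomycin males and females left of saline males and females; right, summed inhibitor FPKM over summed metalloproteinase FPKM per library, with the mean and 1 SD (n = 4). Mmp12 and Mmp14 fill much of the bleomycin bars and little of the saline bars, and the ratio over all 7 enzymes is 0.467 to 0.756 after bleomycin and 0.348 to 0.431 after saline.

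Within the chromosome 9 cluster, transcripts came almost entirely from the 3 members. Mmp12 had 67156 counts over the bleomycin and 1713 over the saline libraries, Mmp8 9466 and 5357, and Mmp13 465 and 11. The 7 other genes of the cluster had 210 counts together, of which Mmp27 had 157 and Mmp10 had 34. The collagenase genes Mmp1a and Mmp1b and the enamel protease gene Mmp20 had 0 counts in all 16 libraries, and stromelysin Mmp3 had 3. Neighbours in the cluster therefore differed widely in count, and Mmp8 differed from Mmp12 and Mmp13 in change. Over both sexes the log2 fold change was 5.24 for Mmp12, 5.19 for Mmp13 and 0.75 for Mmp8.

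Of 16 other metalloproteinase genes, 6 had enough counts to be tested and 6 were called higher over both sexes, where 34.7% of all genes tested were. In males 5 were called, the exception being Mmp23 (edgeR adjusted p = 0.117). Mmp11, Mmp15, Mmp27 and Mmp28 had 4 to 30 counts in each saline group and passed the low-count filter only through the bleomycin groups, so their calls are in part set by it. Mmp25 and Mmp23 pass on the saline libraries alone. Mmp25, a membrane-anchored enzyme of leukocytes, stood at 35.1 ± 5.01 CPM in bleomycin males and 31.0 ± 8.80 CPM in bleomycin females, against 3.90 ± 1.02 CPM in saline males and 2.58 ± 0.443 CPM in saline females (log2 fold change 3.38, SE 0.149, edgeR adjusted p = 1.01e-12). Mmp15, a transmembrane relative of Mmp14, changed by 4.01 (SE 0.262) and reached 4.25 ± 0.613 CPM in bleomycin males and 3.51 ± 0.634 CPM in bleomycin females. The other 4 stayed at low levels, below 2 CPM in every group mean: Mmp28 changed by 3.80, Mmp11 by 2.46, Mmp27 by 1.65 and Mmp23 by 0.85. Their adjusted p-values ran from 1.90e-06 to 0.00411 in edgeR.

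Of 6 other listed genes that inhibit or clear metalloproteinases, 3 were tested. Over both sexes 2 were called higher and 1 lower, where 34.7% of all genes were higher and 28.8% lower. Timp4, a further tissue inhibitor gene, had 6 counts over the 16 libraries and was not tested. Reck, a membrane-anchored inhibitor, had 259 counts in bleomycin males and 138 in bleomycin females, against 3 in saline males and 3 in saline females, and passed the filter only through the bleomycin groups (fitted log2 fold change 5.69, SE 0.487, edgeR adjusted p = 5.61e-09). Thbs1, thrombospondin-1, which binds metalloproteinases and aids their uptake, rose to 124 ± 61.9 CPM in bleomycin males and 102 ± 36.0 CPM in bleomycin females, against 1.73 ± 0.305 and 1.63 ± 0.810 CPM in saline males and females (log2 fold change 6.05, SE 0.303, edgeR adjusted p = 5.34e-12). Lrp1, an endocytic receptor that clears metalloproteinases and their complexes with inhibitors, fell by 0.53 on the log2 scale over both sexes (SE 0.101, edgeR adjusted p = 0.000182). It was called lower in males (-0.72, edgeR adjusted p = 0.000343) and was not called in females (-0.33, edgeR adjusted p = 0.0696).

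Of 14 listed genes for proteases that can activate proenzymes and for the urokinase receptor (Plaur, not a protease), 8 were tested. Over both sexes 5 were higher and 2 lower, where 34.7% of all genes were higher and 28.8% lower. The 2 lower were Plaur and Pcsk7, a proprotein convertase gene. Of the 5 called higher, Plat passed the filter only through the bleomycin groups. St14, matriptase, changed by 4.26 (SE 0.132) and stood at 15.5 ± 1.35 CPM in bleomycin males and 14.4 ± 0.828 CPM in bleomycin females, against 0.702 ± 0.171 CPM in saline males and 0.839 ± 0.256 CPM in saline females. The cysteine cathepsins Ctsb and Ctsk rose by 1.99 (SE 0.0714) and 1.49 (SE 0.0950), and Plau, urokinase, by 1.46 (SE 0.155). Adjusted p-values of these 4 were at most 1.78e-07 in edgeR. The proprotein convertase Furin, which activates Mmp14, was not called at -0.07 (edgeR adjusted p = 0.371), and was called lower when libraries were scaled by totals alone (-0.28, adjusted p = 4.94e-05). That scaling moved the median of all genes by -0.2 on the log2 scale.

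Of 11 genes for surface and granule partners, all tested, 6 were higher and 2 lower over both sexes, against 34.7% and 28.8% of all genes. Cd63, the tetraspanin that binds Timp1, rose by 3.11 (SE 0.143) to 926 ± 199 CPM in bleomycin males and 808 ± 220 CPM in bleomycin females, against 101 ± 23.0 and 99.6 ± 6.66 CPM in saline males and females. Lcn2, the granule lipocalin that binds Mmp9 in humans, rose by 3.61 (SE 0.311), at 4.16 ± 1.47 CPM in bleomycin males and 3.03 ± 1.04 CPM in bleomycin females, against 0.294 ± 0.228 and 0.285 ± 0.113 CPM in saline males and females. Lcn2 passed the filter only through the bleomycin groups. Itgav, an integrin subunit, and the sheddase Adam10 rose by 0.69 (SE 0.0639) and 0.52 (SE 0.0535). Scaled by library totals alone, 5 of the 11 were higher and 5 lower.

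Of 12 tested transcription factors of the AP-1 and ETS families and their partners, 6 were higher, 5 lower and 1 not called over both sexes, against 34.7% of all genes higher and 28.8% lower. Under scaling by library totals alone 5 were higher and 5 lower. Ets1 had the largest change of the 4 with the smallest p, at 6.74 (SE 0.358), with 130 ± 49.5 CPM in bleomycin males and 119 ± 75.9 CPM in bleomycin females, against 1.31 ± 0.0714 and 1.01 ± 0.273 CPM in saline males and females. Ets1 is also a lymphocyte gene, and the lymphocyte marker sums given with Mmp9 moved the same way between treatments, which was not tested further. Junb rose by 1.27 (SE 0.0731) and Atf3 by 1.23 (SE 0.107), whereas Runx2, known as an activator of Mmp13 in bone and cartilage, fell by 0.90 (SE 0.0702). Adjusted p-values of these 4 were at most 1.15e-08 in edgeR. The AP-1 motif printed above for Mmp13 and the second Mmp12 start is a string in the reference, and binding was not measured here.

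Of 14 listed matrix substrates 9 were tested, and 9 were called higher over both sexes, against 34.7% of all genes. Vcan was not called in females (edgeR adjusted p = 0.154), nor over both sexes under scaling by library totals alone. Col1a1, with 0 counts in all saline libraries, Bgn, with 5 counts in saline males and 1 in saline females, and Lamb1, with 7 and 9, passed the filter only through the bleomycin groups, so their calls are in part set by it. The 6 others pass on the saline libraries alone. Fn1, fibronectin, was the abundant one among the 4 with the smallest p, at 4740 ± 1370 CPM in bleomycin males and 5360 ± 610 CPM in bleomycin females, against 1740 ± 176 and 1900 ± 363 CPM in saline males and females. It rose by 1.47 on the log2 scale (SE 0.122, edgeR adjusted p = 6.10e-09). Lamc1, a laminin chain, rose by 1.999 (SE 0.0870), Col4a1, a basement membrane collagen chain, by 3.46 (SE 0.206) and Sparc, a collagen-binding glycoprotein, by 3.39 (SE 0.225).

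The genes nearest to each member in profile were found by the root mean square difference of centred log2 CPM over 16 libraries, among 12619 protein-coding genes. The closest matches were those of Timp2, with Slc44a1, a choline transporter, at 0.125 and Lgmn, the lysosomal protease legumain, at 0.132. Mmp19 had Lhfpl2 among its nearest, at 0.205. Mmp8 lay nearest genes of sterol handling, Stard4 at 0.314 and Insig1 at 0.330. Insig1 stood at 109 ± 20.4 CPM in bleomycin males and 129 ± 11.7 CPM in bleomycin females, against 63.9 ± 2.98 CPM in saline males and 76.6 ± 7.43 CPM in saline females.

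Mmp12 lay nearest Slc6a8, the creatine transporter, at 0.313 and Padi2, an enzyme that citrullinates proteins, at 0.315. Mmp14 lay nearest Ldhb, a lactate dehydrogenase subunit, at 0.396 and Slc36a2 at 0.412, and Mmp2 nearest Dhdh at 0.271 and Sphk1, a sphingosine kinase, at 0.278. Timp1 lay nearest Ropn1l at 0.366 and Tspan4 at 0.373, Timp3 nearest Nuak1 at 0.374 and Tiam1 at 0.399, and Mmp13 had Gabbr2 among its nearest, at 0.572. Mmp9 lay nearest genes of lymphocytes: Izumo1r, the folate receptor FR4 of regulatory T cells, at 0.400 and Mzb1, a gene of B and plasma cells, at 0.423. Izumo1r stood at 3.34 ± 1.63 CPM in bleomycin males and 2.86 ± 1.26 CPM in bleomycin females and had 0 counts in all 8 saline libraries. Mzb1 had 0 counts in saline males and 1 in saline females. Mmp9 was also near 0 there, so its likeness to these genes is in part set by low counts. The pair of Mmp13 and Gabbr2 shares this limit, Gabbr2 having 2 counts in saline males and 1 in saline females. All these profiles share the libraries and the difference between treatments, so likeness of profile is a description with no test.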

How the data were processed

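RNA sequencing counts of lavage cells from 16 libraries in 4 groups of 4 were analysed. The authors' tools, per the submitters' processing notes, were DESeq2 (no version), featureCounts 1.5.0-p3, HISAT2 2.0.5 and fastp 0.12.2, with builds mm9 and mm10 named but not their roles. Gene coordinates of all 10 members are identical to GENCODE M21 (GRCm38), as are those of 98.33% of the 54495 shared identifiers. The deposited counts are the authors' raw counts per Ensembl gene. The deposited FPKM equal, by calculation, the counts over gene length, scaled in each library by a factor proportional to its DESeq2 size factor. The log2 fold changes and p-values of 5 comparisons are the authors' deposited values and are named as such where printed.

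The 16 libraries entered one edgeR 4.0.16 model with the 4 groups as terms, under R 4.3.3 (quasi-likelihood test, TMM scaling, filterByExpr by group with a minimum count of 10, 15257 of 54532 genes). P-values were adjusted by Benjamini-Hochberg over all genes tested and called below 0.05. The SE is approximate, the unshrunken change divided by the square root of F. Single genes were also compared by two-sided exact permutation tests of mean log2(CPM + 1). Alternatives used DESeq2 1.42.0, limma 3.58.1, other scalings and filters, the compared groups alone, and each library left out. The edgeR procedure was tested on simulated data. The members and gene lists were chosen with earlier results of these data known. Named genes are all members, all tested other metalloproteinases, the 4 of each other list with the smallest p over both sexes, and the 2 nearest genes per member, of which 2 genes are not reported here. Furin, Vcan, Plat, Plaur, Pcsk7, Bgn, Lamb1 and Timp4 were named after their values were seen. So were Syn1, Syn3, Tmem198b and Cep295nl, the marker genes named, and the genes named with counts in the chromosome 9 cluster.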

Additional observations from a re-analysis of the deposited data

Results flagged for a closer look

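Within single groups of 4 libraries, 44 sets of values were examined for a library standing far from the other 3, and 2 were found, where chance alone gives about 1 in 20. Mmp12 in saline female C75 was 19.5 CPM, against 7.67 to 8.88 CPM in the other saline females, and all bleomycin libraries remained far above it. Mmp9 in saline male C70 was 0 CPM, against 0.0484 to 0.0572 CPM in the other saline males, each of which held 1 count.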

How the results depend on the processing

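No paired analysis was possible because no replicate code occurs in more than 1 group. No member changed direction in a called comparison under any alternative run, and 10 of 10 members were called higher in males and over both sexes under each, except that the strict filter (at least 1 CPM in 8 libraries) left 8 to test, all called higher there and 7 of them in females. In females 9 of 10 members were called with DESeq2 size factors, library totals or the groups compared alone, and 9 to 10 when 1 library was left out, the member lost being Mmp8. Scaling by library totals alone moved the share of calls that were higher to 35.8% in males, 39.3% in females and 34.7% over both sexes, against 55.8%, 60.8% and 54.6%. For the interaction, genes called numbered 1, against 0 with library totals, the strict filter or limma voom, 15 without a filter and 23 with DESeq2. Between the sexes under bleomycin they numbered 9, against 14 without a filter. Under saline they numbered 41, against 119 without a filter, 177 with DESeq2 and 764 with the saline groups alone, and 1 member instead of 0 was called without a filter and with the saline groups alone, namely Mmp8. Leaving out C33, C49 and C50, chosen after seeing the data, gave 670 genes under bleomycin, 277 under saline and 77 for the interaction. Leaving out 1 library gave 8 to 10, 20 to 76 and 0 to 1 genes in those 3 comparisons. It gave 7737 to 9241 genes for bleomycin against saline in males, 6067 to 7754 in females and 9364 to 10487 over both sexes. With Mmp12 left out of the sum the inhibitor to metalloproteinase ratio was 0.847 in bleomycin males and 0.737 in bleomycin females. With Mmp19 left out, chosen after seeing the data, the mean was lower after bleomycin, at 1.14 in bleomycin males and 1.06 in bleomycin females, against 1.97 in saline males and 1.21 in saline females. The cause of the other shifts was not tested, whereas Mmp19 is most of the saline protease sum. Low counts limit Mmp9, Mmp13 and Timp3 under saline, where 3 to 9 counts per group set the fold.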
